A study of Mus musculus with 6 samples.

Results

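The elastic fibre components described here are 10 genes, namely elastin (Eln), the fibrillins Fbn1 and Fbn2, the microfibril-associated proteins Mfap2, Mfap4 and Mfap5, the fibulins Fbln1, Fbln2 and Fbln5, and the cross-linking enzyme Lox. They were chosen by gene name among the 36028 genes with a usable probe on the array, and they had 15 probes between them. Of the 10 genes, 9 passed the filter on dim probes, which asks for a signal well above background on each array of 1 group or more. They were tested with all 24648 genes that passed it, and Mfap5 did not pass.

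Expression was measured in N18-Fms cells, labelled N18-CFMS, with 2 arrays of unstimulated cells, labelled as given vehicle, 2 of cells stimulated for 24 h with recombinant murine CSF-1 (rmCSF-1) at 100 ng/mL, and 2 of cells stimulated for 48 h. N18 is a luciferase-transfected subclone of C2H, a clonal line from a prostate tumor of the TRAMP mouse, and N18-Fms cells are N18 cells transduced with murine c-fms, which encodes the CSF-1 receptor (CSF-1R), and sorted for the receptor. All 6 arrays are therefore of 1 subclone that carries the transgene, and cells without it were not among them. The study describes the cells as secreting CSF-1 themselves, so the unstimulated cells lacked added ligand only. All cells grew in serum with dihydrotestosterone, and the RNA came from 2 independent experiments. The labels give the times used here, whereas the methods section of the study gives shorter ones. No time is given for the unstimulated cells, and they were the comparison for both times. Time in culture can therefore not be told apart from stimulation.

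Elastic fibres have a core of elastin, secreted as tropoelastin, laid on a scaffold of microfibrils that are built of fibrillins with microfibril-associated proteins. Fibulins bridge the elastin and the microfibrils, and lysyl oxidase oxidizes lysines of tropoelastin and collagen so that the chains become cross-linked. In the prostate the fibres lie in the stroma around the glands, where fibroblasts and smooth muscle cells make most of them.

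The signal of each probe is given as its log2 relative to the 75th percentile of the array (log2 relative signal), which allows a probe to be compared between arrays but not with another probe. Of the 59305 spots of an array, 58.7% to 72% were well above background in the scanner software's flags and 0 were saturated. Replicates correlated with each other at a Pearson's r between 0.982 and 0.9844 across 55378 probes, which are not independent of each other. The number of arrays limits the precision, and p-values measure the spread between these arrays. In total RNA from a culture, fewer expressing cells and less RNA per cell cannot be told apart.

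The windows just upstream of the annotated starts of Fbn1, Fbln5 and Fbln1 are shown first. Fbn1 and Fbln5 were called lower at both times, and Fbln1 was called higher at 48 h only. The windows are as RefSeq gives them on GRCm38.p6 and on the strand of the gene. Capitals mark matches, on either strand, to the motifs searched. The Fbn1 window is chr2:125506486-125506685 (minus strand), the Fbln5 window is chr12:101819120-101819319 (minus strand), and the Fbln1 window is chr15:85205749-85205948 (plus strand).
Fbn1: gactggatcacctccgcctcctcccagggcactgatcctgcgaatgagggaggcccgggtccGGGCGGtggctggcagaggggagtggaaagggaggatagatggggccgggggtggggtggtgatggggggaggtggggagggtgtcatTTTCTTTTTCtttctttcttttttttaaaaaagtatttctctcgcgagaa
Fbln5: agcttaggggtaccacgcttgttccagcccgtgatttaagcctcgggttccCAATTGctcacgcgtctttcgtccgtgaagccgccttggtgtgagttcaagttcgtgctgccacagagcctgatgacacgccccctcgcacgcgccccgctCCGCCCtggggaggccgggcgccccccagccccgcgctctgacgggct
Fbln1: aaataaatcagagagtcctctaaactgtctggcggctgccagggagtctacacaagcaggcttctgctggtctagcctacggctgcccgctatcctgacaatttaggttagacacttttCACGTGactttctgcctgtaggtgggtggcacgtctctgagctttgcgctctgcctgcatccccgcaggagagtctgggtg

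In the 250 bases upstream of a start, 7 motifs were searched on both strands: AP-1 (TGANTCA), GAS (TTCNNNGAA), ISRE (GAAA, any 2 bases, GAAA), SP1 (GGGCGG), the TATA box (TATAAA), the E-box (CANNTG) and the CArG box. In the 200 bases printed, the Fbn1 window holds 1 ISRE and 1 SP1 match, the Fbln5 window SP1 and E-box matches, and the Fbln1 window 1 E-box match. Over 250 bases the Fbln5 start shown has 2 SP1 matches and 1 E-box match. Fbln5 and Fbln1 each have another annotated start, with 0 matches for Fbln5 and 1 SP1 and 2 E-box matches for Fbln1. Among all 32851 promoters of the RefSeq table, 2.98% held the ISRE letters, 32.7% SP1 and 66.2% the E-box, and AP-1 was found in 6.75%, GAS in 7.02%, TATA in 12.4% and the CArG box in 1.47%. The AP-1, GAS, TATA and CArG letters had no match in the windows of the 5 components with an entry, which were Fbn1, Fbln1, Fbln2, Fbln5 and Mfap2. A match is a description of letters and not of a bound site.

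Fibrillin-1, fibulin-5 and lysyl oxidase transcripts were lower after 24 h and after 48 h of CSF-1 than in unstimulated cells. The elastin transcript did not pass the test at either time. Fbln5 changed most of the components, with a log2 fold change of -2.34 at 24 h and -3.14 at 48 h. Fbln1 was called higher at 48 h, a call kept in 1 of the 6 fits with an array left out. Of the 9 components tested, 0 rose and 3 fell at 24 h at an adjusted p under 0.05, where 8.02% of all genes tested rose and 5.99% fell. At 48 h, 1 rose and the same 3 fell, beside 6.58% and 7.38% of all genes tested. The median log2 change of the 9 components was 0.05 at 24 h and 0.04 at 48 h, against 0.04 and -0.04 over all genes tested, so that the fall of the 3 components was not a shift of all 9. Changes in the text are log2 fold changes with the standard error (SE) of the fit, and p-values come from limma's test and are adjusted by Benjamini-Hochberg over the 24648 genes, unless another adjustment is named.

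**Figure D1:**
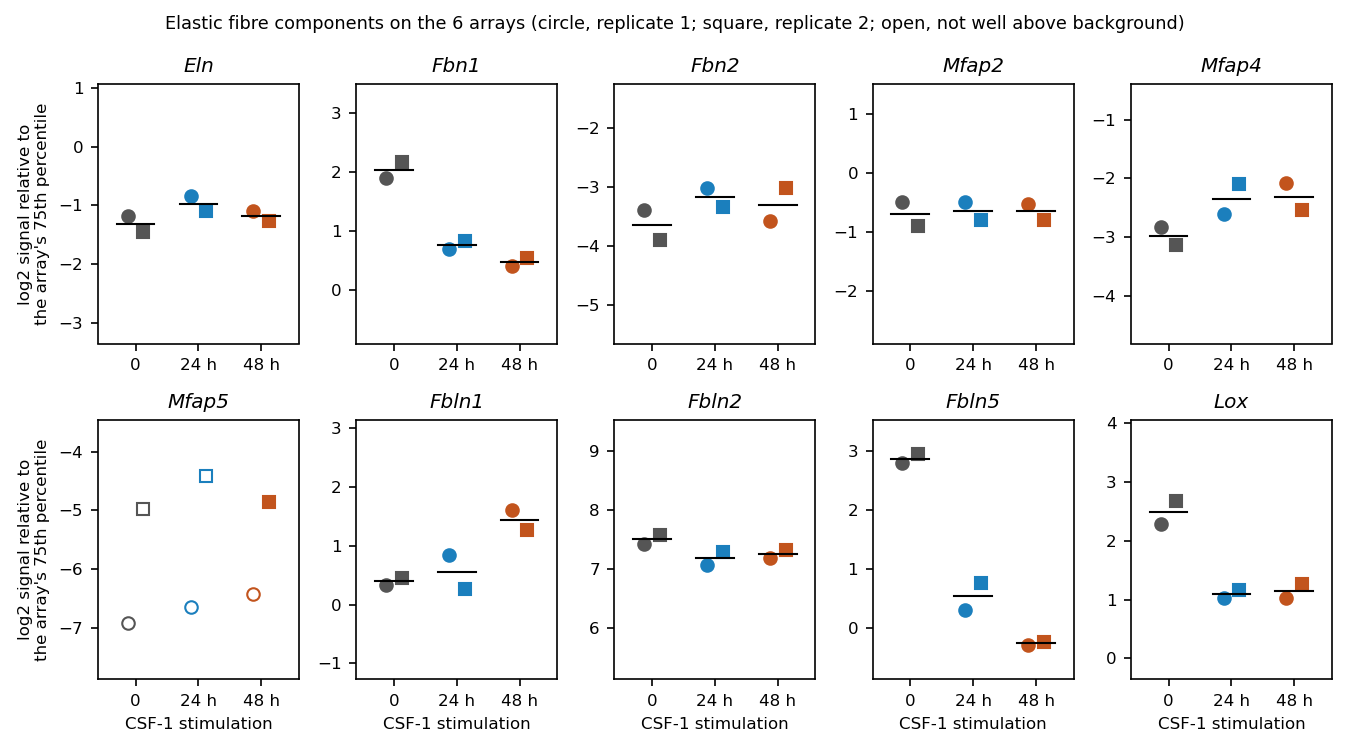
Log2 signal relative to the array's 75th percentile (y axis, the same span of 4.4 units in each panel) of the 10 components on the 6 arrays, by time of CSF-1 stimulation (x axis). Circles are replicate 1, squares replicate 2, open symbols are not well above background and lines are group means of the tested genes. Fbn1, Fbln5 and Lox sit lower on all 4 stimulated arrays than on both unstimulated arrays, and Mfap5 is filled on 1 array.

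The core of the fibre, elastin, is measured by 1 probe, whose 60 bases lie at chr5:135179129-135179188 of build mm9 on the minus strand. The log2 relative signal of Eln was -1.18 and -1.45 in unstimulated cells, -0.84 and -1.09 at 24 h, and -1.10 and -1.26 at 48 h. The 24 h arrays lay above both unstimulated arrays, whereas at 48 h the first array lay above both and the second between them. The change was 0.35 at 24 h (95% interval -0.05 to 0.75, adjusted p = 0.207) and 0.14 at 48 h (-0.26 to 0.54, adjusted p = 0.613). A rise of up to 0.75 or a fall of 0.05 on the log2 scale at 24 h is within this interval.

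Fibrillin-1, the main structural protein of microfibrils after birth, is measured by 1 probe at chr2:125126727-125126786 (mm9, minus strand), which begins with tcacttatgagtatggtgcagtacatgtaa. Its log2 relative signal was 1.90 and 2.17 in unstimulated cells, 0.69 and 0.82 at 24 h, and 0.40 and 0.53 at 48 h. As background-subtracted signal, this was 2050 and 2750 in unstimulated cells, against 923 and 1050 at 24 h and 730 and 872 at 48 h. All 4 stimulated arrays lay well below both unstimulated arrays, with no overlap. Fbn1 fell by 1.28 at 24 h (SE 0.14, 2.43-fold lower, adjusted p = 0.0078) and by 1.57 at 48 h (SE 0.14, 2.96-fold lower, adjusted p = 0.00436). Of all genes tested, 290 fell further at 24 h and 163 at 48 h. The call at 24 h was lost without the second unstimulated array (adjusted p = 0.0541) or the second 24 h array (adjusted p = 0.0644), and that at 48 h without the first 48 h array (adjusted p = 0.0536), with the change between -1.41 and -1.14 at 24 h and between -1.70 and -1.43 at 48 h over the 6 arrays left out in turn.

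Fibrillin-2, the fibrillin most associated with developing tissue, has 2 probes that did not move alike. The brighter one had a log2 relative signal of -3.39 and -3.89 in unstimulated cells, -3.02 and -3.33 at 24 h, and -3.58 and -3.02 at 48 h, which is 0.47 higher at 24 h (adjusted p = 0.302) and 0.34 higher at 48 h (adjusted p = 0.444). The other probe, A_51_P103850, read -3.85 and -4.42 in unstimulated cells and -3.93 and -4.47 at 24 h. At 48 h it was not well above background on either array. The bound on its group means there was 1.48-fold lower than in unstimulated cells and leaves out sampling error (adjusted p = 0.0679 with each of 34814 probes tested alone). Neither probe passed the test, and the direction at 48 h depended on the probe.

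The microfibril-associated glycoprotein Mfap2, which binds fibrillin and tropoelastin, varied more between replicates than between groups. Its log2 relative signal was -0.49 and -0.90 in unstimulated cells, -0.49 and -0.79 at 24 h, and -0.52 and -0.79 at 48 h. The changes were 0.05 (95% interval -0.45 to 0.56, adjusted p = 0.894) and 0.04 (-0.47 to 0.55, adjusted p = 0.921), and their sign turned when arrays were scaled to their median. Its other probe gave 0.18 at 24 h (adjusted p = 0.589) and 0.49 at 48 h (adjusted p = 0.168) with each probe tested alone.

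Mfap4, which binds elastin and fibrillin, read -2.82 and -3.14 in unstimulated cells, -2.60 and -2.10 at 24 h, and -2.07 and -2.54 at 48 h. Each stimulated array lay above both unstimulated arrays. The change was 0.63 at 24 h (SE 0.25, adjusted p = 0.161) and 0.67 at 48 h (SE 0.25, adjusted p = 0.142), so neither passed the test. Mfap5, the relative of Mfap2, was well above background on 1 of the 6 arrays, the second at 48 h, with a log2 relative signal of -4.85 there, and no fold change is given.

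**Figure D2:**
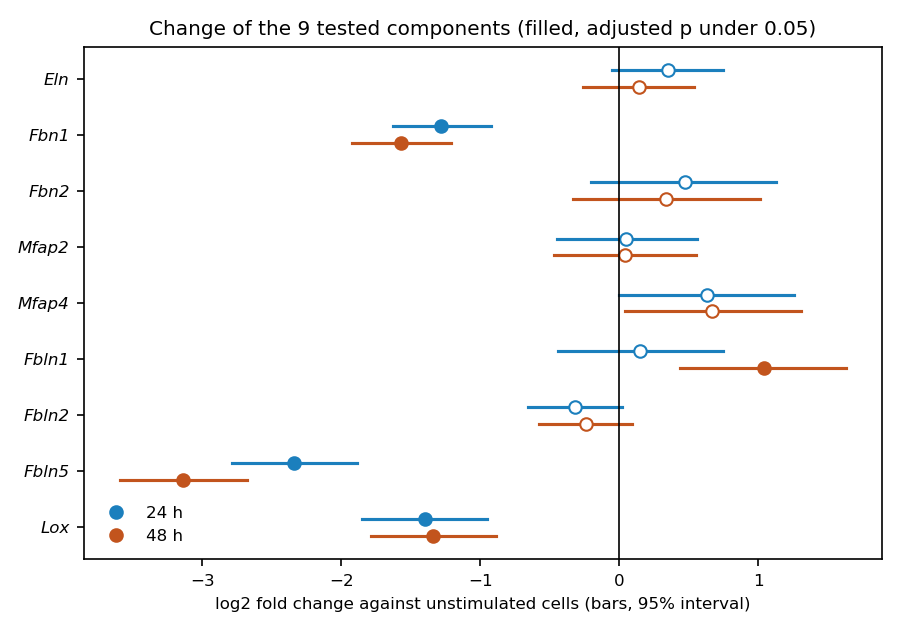
Log2 fold change of the 9 tested components (x axis) after 24 h and after 48 h of stimulation, against unstimulated cells, with 95% intervals of limma's fit as bars. Filled points had an adjusted p under 0.05, and these are Fbn1, Fbln5 and Lox at both times, at -1.28 or lower, and Fbln1 at 48 h, at 1.04.

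The fibulins, which bridge elastin and the microfibrils, went separate ways. Fibulin-5, an elastin-binding protein that also binds cell surface integrins and the lysyl oxidase-like enzyme Loxl1, had a log2 relative signal of 2.79 and 2.95 in unstimulated cells, 0.30 and 0.76 at 24 h, and -0.30 and -0.24 at 48 h. The signals behind these values were 3800 and 4730 in unstimulated cells, 704 and 1010 at 24 h, and 450 and 510 at 48 h. The 3 groups did not overlap, and they were ordered from unstimulated to 24 h to 48 h. Fbln5 changed by -2.34 at 24 h (SE 0.18, 5.06-fold lower, adjusted p = 0.00342) and by -3.14 at 48 h (SE 0.18, 8.80-fold lower, adjusted p = 0.00144). Of the 24648 genes tested, 52 fell further at 24 h and 18 at 48 h. It was called at both times with each of the 6 arrays left out, at an adjusted p of at most 0.0401 at 24 h and 0.0251 at 48 h.

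The value of Fbln5 rests on 1 of its 2 probes. The probe that stands for the gene lies at chr12:102988153-102988212 (mm9, minus strand), from base 2394 of the transcript NM_011812, and the other one lies further 3′, from base 5669, at chr12:102984878-102984937. Their first 30 bases, as designed, are shown to tell them apart.
A_55_P2088615: ttaagagtttttacccaactgtgttggaag
A_52_P278336: agacaaaactagaacatgacctcttttagt

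The second probe was not well above background on any of the 6 arrays, with a log2 relative signal between -6.86 and -4.79, and gives no fold change. Where both probes were averaged, the change of Fbln5 was -0.78 at 24 h (adjusted p = 0.184) and the call was lost, and at 48 h it was -1.87, still called.

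Fibulin-1, a component of elastic fibres and basement membranes, was measured by 2 probes at chr15:85115998-85116057 and chr15:85115550-85115609 (mm9, plus strand). The brighter probe read 0.33 and 0.46 in unstimulated cells, 0.85 and 0.26 at 24 h, and 1.61 and 1.26 at 48 h. The arrays at 24 h lay on either side of the unstimulated ones, and both arrays at 48 h lay above all others. Fbln1 changed by 0.15 at 24 h (SE 0.24, adjusted p = 0.719) and rose by 1.04 at 48 h (SE 0.24, 2.05-fold higher, adjusted p = 0.046). The other probe read -0.96 and -0.87 in unstimulated cells, -0.61 and -1.33 at 24 h, and 0.25 and -0.20 at 48 h, a change of -0.05 and then of 0.94. Both probes thus were higher at 48 h on both arrays, but with each probe tested alone their adjusted p at 48 h was 0.0518 and 0.0928. The call at 48 h was kept when the first 24 h array was left out (adjusted p = 0.0431) and was lost without the first or second unstimulated array (0.183 and 0.156), the second 24 h array (0.0712) and the first or second 48 h array (0.215 and 0.102), with the change between 0.86 and 1.21.

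Fibulin-2, found in elastic fibres and around vessels, read 7.42 and 7.58 in unstimulated cells, 7.07 and 7.28 at 24 h, and 7.19 and 7.31 at 48 h. All 4 stimulated arrays lay below both unstimulated arrays, by little. The change was -0.32 at 24 h (95% interval -0.66 to 0.02, adjusted p = 0.178) and -0.24 at 48 h (-0.58 to 0.09, adjusted p = 0.289). A fall of Fbln2 of the size seen for Fbln5 lies outside both intervals.

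**Figure D3:**
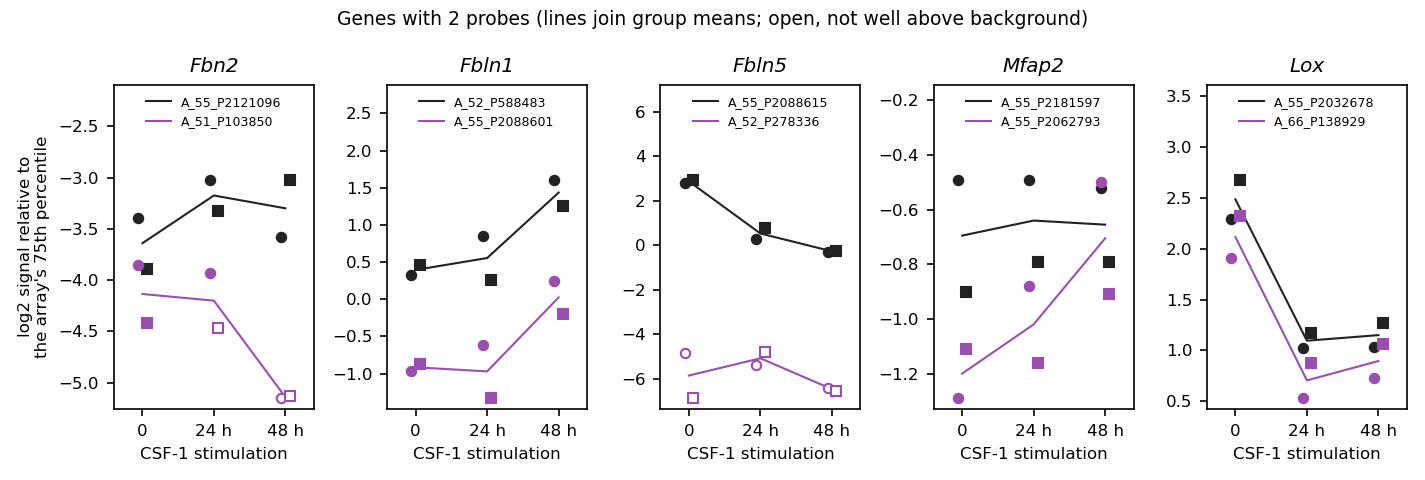
Log2 signal relative to the array's 75th percentile (y axis, own range in each panel) of both probes of the 5 components with 2 probes, by time of CSF-1 stimulation (x axis). Circles are replicate 1, squares replicate 2, open symbols are not well above background, and lines join group means. The probes of Lox and of Fbln1 run side by side, the second probe of Fbln5 has open symbols on all 6 arrays, and those of Fbn2 part at 48 h.

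Lysyl oxidase, the enzyme that starts the cross-linking of elastin and collagen, is measured by 2 probes, both well above background on all arrays. The brighter probe of Lox read 2.29 and 2.68 in unstimulated cells, 1.02 and 1.17 at 24 h, and 1.03 and 1.27 at 48 h. Its signals were 2700 and 3930 in unstimulated cells, 1160 and 1340 at 24 h, and 1130 and 1460 at 48 h. The stimulated arrays lay below both unstimulated arrays and the times overlapped each other. Lox fell by 1.40 at 24 h (SE 0.18, 2.63-fold lower, adjusted p = 0.0106) and by 1.34 at 48 h (SE 0.18, 2.53-fold lower, adjusted p = 0.0125). The other probe, A_66_P138929, fell by 1.41 (adjusted p = 0.02) and by 1.23 (adjusted p = 0.0297) with each probe tested alone. The call of Lox at 24 h was lost without the second unstimulated array (adjusted p = 0.0629) or the first or second 24 h array (0.0603 and 0.0744). At 48 h it was lost without the second unstimulated array (0.0671), the second 24 h array (0.0583) or the first 48 h array (0.098), while the change stayed between -1.59 and -1.14 at either time.

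The first 24 h array was hybridized on a slide of its own and the other 5 shared 1 slide. Within the shared slide, where 24 h has 1 array, the change at 24 h was -2.11 for Fbln5 (adjusted p = 0.016), -1.22 for Fbn1 (adjusted p = 0.0472), -1.32 for Lox (adjusted p = 0.0603) and -0.14 for Fbln1 (adjusted p = 0.744). The lone 24 h array is assumed there to vary like the other groups.

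The components were also called at the thresholds of the study, an unadjusted p under 0.05 and at least a 2-fold change. This gave 0 higher and 3 lower at 24 h, where 5.86% of all genes tested were higher and 1.83% lower, and 1 higher and 3 lower at 48 h, beside 4.66% and 1.83%. They were the same genes as with the adjusted p. The methods' t-test, run gene by gene on the same values, called 0 of the 24648 genes after Benjamini-Hochberg adjustment, and before adjustment it called Fbn1, Fbln5 and Lox at 24 h and also Fbln1 at 48 h, among 5403 and 5485 genes.

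The times were compared directly to see which components went on changing. By limma, 0% of the genes tested differed between 24 h and 48 h after adjustment, and 3357 genes, 13.6%, had an unadjusted p under 0.05. Among the components these were Fbln5, at -0.80 from 24 h to 48 h (SE 0.18, unadjusted p = 0.00577, adjusted p = 0.185), and Fbln1, at 0.88 (SE 0.24, unadjusted p = 0.0116, adjusted p = 0.228). Arrays of the times did not overlap for these genes, nor for Eln and Fbn1, whose unadjusted p was 0.237 and 0.0937. Fbn1 was lower at 48 h than at 24 h by 0.29 (95% interval of the change -0.64 to 0.07), and for Lox the change was 0.06 (-0.39 to 0.51).

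**Figure D4:**
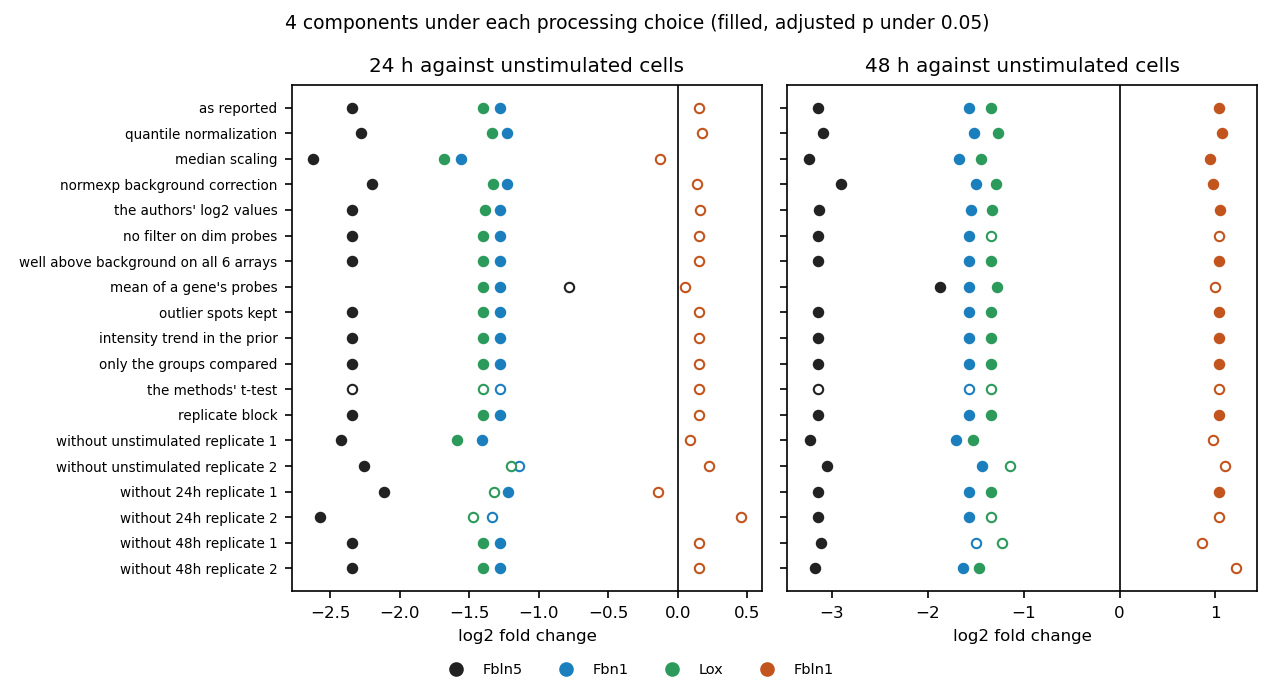
Log2 fold change (x axis) of Fbln5, Fbn1, Lox and Fbln1 at 24 h and 48 h against unstimulated cells under each processing choice and with each array left out (y axis). Filled points had an adjusted p under 0.05. Fbln5, Fbn1 and Lox stay below 0 throughout, and Fbln5 at 24 h moves to -0.78 with the mean of its probes.

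Other genes of elastic fibres were read from 7 lists of 53 genes, of which 40 were tested. At 24 h, 9 of the 40 rose and 9 fell, where 8.02% of all genes tested rose and 5.99% fell. At 48 h, 7 rose and 7 fell, beside 6.58% and 7.38% of all genes tested. The median log2 change of the 40 was 0.03 and 0.04, against 0.04 and -0.04 over all genes tested. The same shares stand beside the counts of each list below, and the lists were chosen with earlier results known. Among other microfibril and elastin-binding glycoproteins, 3 of 5 tested fell at 24 h and 1 at 48 h. Efemp1, also called fibulin-3, changed by -2.27 and -2.04 (adjusted p = 0.00164 and 0.00171), and Emilin2 by -1.09 at 24 h (adjusted p = 0.0238). Of 4 lysyl oxidase-like enzymes, Loxl1, the relative of Lox that binds fibulin-5, fell by 1.21 and by 1.13 (adjusted p = 0.00549 and 0.0059), and Loxl4 was higher by 0.83 at 24 h (adjusted p = 0.0322) and lay at 0.02 at 48 h (adjusted p = 0.946). With Lox, the cross-linking enzymes called lower at both times were therefore 2 of the 5 tested.

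Microfibrils also store latent TGF-β. Of 7 latent TGF-β binding proteins and ligands, 1 rose and 1 fell at 24 h, and 1 rose and 2 fell at 48 h. The ligand Tgfb2 fell by 1.76 and by 1.84 (adjusted p = 0.00423 and 0.00337), and Tgfb1 rose by 1.53 and 1.73 (adjusted p = 0.0047 and 0.00314). The other one lower at 48 h was the binding protein Ltbp2, at -0.79 (adjusted p = 0.0421), named here after its values were seen. Among 10 assembly and processing enzymes, 2 rose and 1 fell at each time. These were Furin, Adamtsl2 and Fkbp10. Furin, a convertase that cleaves pro-fibrillin, rose by 1.35 and 1.21 (adjusted p = 0.00938 and 0.0128). Adamtsl2 was not well above background in unstimulated cells, and at 24 h it was so on 1 array only. Its change was 0.79 at 24 h and 0.82 at 48 h (SE 0.17, adjusted p = 0.0432 and 0.0388). The bound on its group means, 1.73-fold and 1.77-fold higher, equalled the fold change itself and leaves out sampling error. Fkbp10, a chaperone of the endoplasmic reticulum, changed by -0.50 and -0.49 (adjusted p = 0.0465 and 0.0489). Among 4 proteoglycans, decorin (Dcn) rose by 2.08 and 2.78 (adjusted p = 0.0156 and 0.00744), biglycan (Bgn) fell by 0.58 and by 0.66 (adjusted p = 0.0375 and 0.028), and perlecan (Hspg2) fell by 0.77 at 24 h (adjusted p = 0.0287).

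Of 4 elastin-degrading proteases tested, 1 rose at 24 h and 2 at 48 h, and 0 fell. Cathepsin L (Ctsl) rose by 0.79 and 1.17 (adjusted p = 0.0151 and 0.00554). Cathepsin S (Ctss) was not well above background in unstimulated cells or at 24 h. Its group mean was at least 5.44-fold higher at 48 h, sampling error left out (adjusted p = 0.0074). Of 6 integrin chains whose receptors bind fibrillins, fibulin-5 or elastin, 3 rose and 1 fell at 24 h and 1 rose and 1 fell at 48 h. Itgb3 was not well above background in unstimulated cells. Its group mean was at least 19-fold higher at 24 h and at least 8.69-fold higher at 48 h, sampling error left out (adjusted p = 0.00663 and 0.0139). Itgb5 fell by 1.20 and by 0.78 (adjusted p = 0.0122 and 0.0374). Of the genes named from these lists other than Ltbp2, Efemp1 and Tgfb2 were called at both times with each of the 6 arrays left out, and each of the rest lost a call when 1 array or another was left out. For Loxl1 these were the second unstimulated and the second 24 h array at 24 h (adjusted p up to 0.0545) and the second unstimulated and the first 48 h array at 48 h (adjusted p up to 0.0653).

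**Figure D5:**
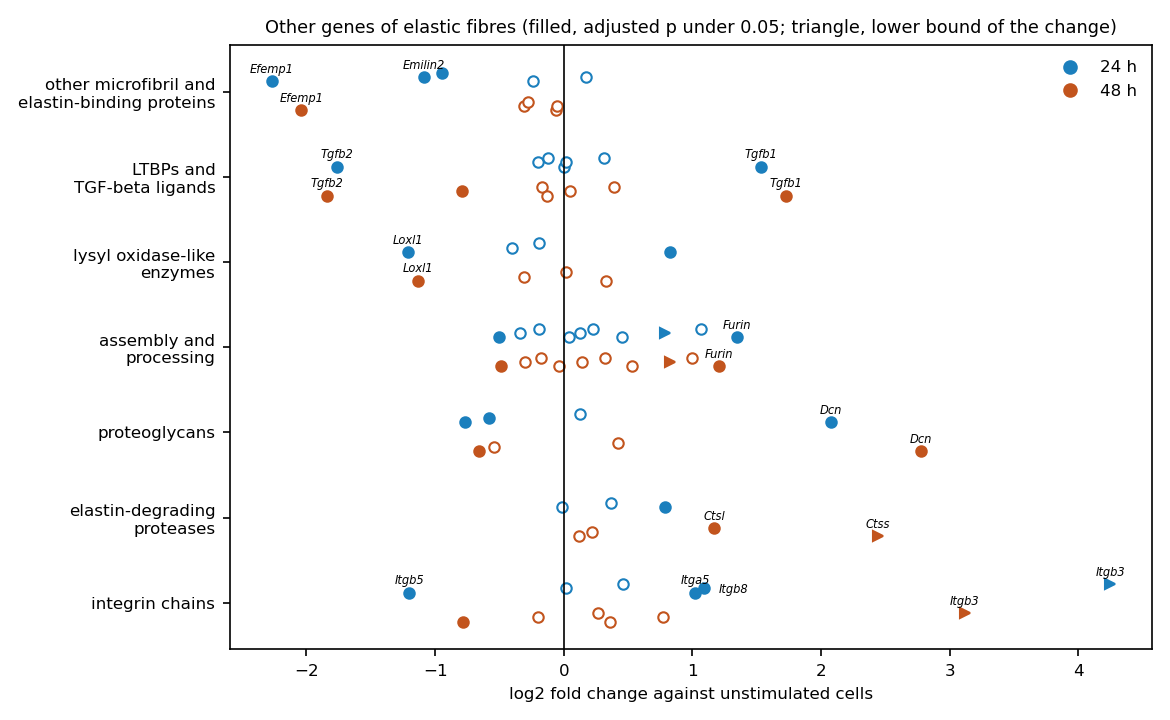
Log2 fold change against unstimulated cells (x axis) of the tested genes in 7 lists of other elastic fibre genes (y axis), after 24 h and after 48 h of stimulation. Filled symbols had an adjusted p under 0.05, and called genes beyond 1 in either direction are named. Triangles are lower bounds on group means, without sampling error, for genes not well above background in 1 of the groups. Efemp1, Tgfb2 and Loxl1 lie at -1.13 or lower at both times, and Tgfb1, Furin, Dcn and Itgb3 at 1.21 or higher.

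Fibroblast and smooth muscle markers were among the genes that fell with these components. All 8 fibroblast markers were well above background on all 6 arrays, and their summed signal, in units of the array's 75th percentile, went from 650 to 660 in unstimulated cells to 430 to 435 at 24 h and 411 to 417 at 48 h. Of the 8, 5 fell at both times, namely Col1a1, Col1a2, Col3a1, Pdgfrb and Dpt, and 1, Pdgfra, rose at 24 h. Vim, the largest part of the sum, was not called (-0.16 and -0.27, adjusted p = 0.423 and 0.198). Thy1 was not called either (0.63 and 0.43, adjusted p = 0.163 and 0.319). Beside these and the marker counts below, 8.02% of all genes tested rose and 5.99% fell at 24 h. At 48 h the shares were 6.58% and 7.38%. Of 6 smooth muscle markers, Acta2, Tagln and Cnn1 fell at both times, and the defining marker Myh11 was well above background on no array. Smtn (0.04 and 0.15, adjusted p = 0.915 and 0.595) and Des (0.71 and 0.16, adjusted p = 0.071 and 0.646) were not called. The smooth muscle sum over the 6 markers, most of it the signal of Smtn, was 114 to 122, 93.7 to 102 and 91.2 to 110. Of 7 epithelial and prostate markers, Cdh1 was well above background on no array and Epcam on 1, and the sum was 1.80 to 2.15, 1.89 to 1.99 and 2.58 to 2.61. The 1 epithelial marker called was Krt8, which rose by 1.98 at 48 h (adjusted p = 0.0106). The macrophage sum over 6 markers, most of it the signal of Itgam, was 39.8 to 44.4, 30 to 37.5 and 24.6 to 34. Itgam itself was not called (-0.43 and -0.65, adjusted p = 0.264 and 0.12), Cd14 rose by 0.87 and 0.69 (adjusted p = 0.0101 and 0.0191), and Lyz2 was well above background on no array. The endothelial sum over 4 markers, most of it the signal of Kdr, was 18.7 to 25.4, 20.5 to 23.9 and 18.7 to 21.5, while Cdh5 rose by 3.87 and 3.97 (adjusted p = 0.00308 and 0.00234). The part of these markers in the fall of Fbn1, Fbln5 and Lox was not tested.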

How the data were processed

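Total RNA of 6 cultures, 2 in each of 3 groups, was labelled with Cy3 and hybridized by the authors to single-color Agilent mouse arrays. Groups were taken from the sample labels. The authors deposited each array as put out by Agilent Feature Extraction, version 11.0.1 in the submitters' processing notes, and the processed spot intensity used here is background-subtracted and detrended within the array and not normalized between arrays. Probe positions are those of the files, on mm9. The authors also deposited log2 values of 44569 probes, with scale and centring not stated. Their column medians were 0.0259 and -0.0378 in unstimulated cells, 0.173 and 0.00707 at 24 h, and -0.00936 and -0.0226 at 48 h. With each array centred, 99.94% of the differences in that table matched those of the log2 signals to within 0.05, over the 24648 genes tested. Each probe there has a baseline of unknown origin, and the table served as an alternative. How the authors normalized for their comparisons is not given in the sources used here.

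Control spots and outlier spots were left out, which removed 303 of 55681 probes and left 55378. The log2 of the signal minus the array's 75th percentile was taken, and the brightest probe, by its mean over all arrays, stood for its gene. Where no array of a group was well above background, a bound is given, namely the brighter group's mean over the dimmer group's, in which each array counts with the higher of the probe's own signal and the lowest signal among probes well above background. A bound compares group means and leaves out the sampling error between arrays. The test was 2-sided and used lmFit and eBayes of limma 3.58.1 (R 4.3.3 and data.table in version 1.17.8) and took all 6 arrays in one fit, whose degrees of freedom were 3 residual and 2.39 prior. An adjusted p under 0.05 was called. The smallest p of an exact test between groups of 2 is 0.333, which is what groups without overlap give. The procedure was tested on simulated data.

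The components, the gene lists and the alternatives were chosen with earlier results of these data known. All components are named. Of the other elastic fibre genes, those called at both times and, in each list, up to 2 with the largest mean change among those called are named. The alternatives were quantile normalization, median scaling, normexp background correction with an offset of 50, the log2 values of the authors, dim probes kept or genes filtered on all 6 arrays, the mean of a gene's probes, outlier spots kept, an intensity trend in the prior, only the groups compared, the methods' t-test, the thresholds of the study, the replicate number as a block, and each array left out. Promoters came from RefSeq (GRCm38.p6), where 5 of the 10 components have an entry. No genome or transcript model of mm9 was used here, so exons and untranslated regions under the probes are not given. One marker of the lists is not reported here.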

Additional observations from a re-analysis of the deposited data

How the results depend on the processing

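Fbn1, Fbln5 and Lox were lower at both times under all alternatives run. The methods' t-test with adjustment called 0 components lower at 24 h, 0 lower at 48 h and 0 higher at 48 h. The 1 component higher at 48 h, Fbln1, was also lost with no filter on dim probes (0 higher, adjusted p = 0.13) and with the mean of a gene's probes (0 higher, adjusted p = 0.0683), and Lox at 48 h had an adjusted p of 0.0535 with no filter. Leaving out each array in turn gave 1 to 3 components lower at 24 h, 0 to 1 higher and 1 to 3 lower at 48 h. The count at 24 h was 1 without the second unstimulated or the second 24 h array, and that of lower ones at 48 h was 1 without the first 48 h array.

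Median scaling moved the median of all genes by -0.28 at 24 h, -0.10 at 48 h and 0.18 between the times. Under it 1197 genes were higher and 3706 lower at 24 h (24.4% higher), against 1977 and 1477 (57.2%) as reported, and 1204 and 1890 at 48 h (38.9%), against 1621 and 1820 (47.1%). Signs turned for values that did not pass the test. Under median scaling these were Fbln1 (-0.13) and Mfap2 (-0.23) at 24 h, Mfap2 (-0.06) and Loxl4 (-0.08) at 48 h, and Fbn2 (0.06) and Mfap2 (0.17) between the times. Between the times quantile normalization turned Fbn2 (0.05) and Mfap2 (0.01), and the mean of a gene's probes turned Mfap2 (0.15) and, at 48 h against unstimulated cells, Fbn2 (-0.33). With each array left out, the change at 24 h ran from -0.14 to 0.45 for Fbln1 and from -0.15 to 0.26 for Mfap2, that at 48 h from -0.16 to 0.24 for Mfap2 and from -0.08 to 0.12 for Loxl4, and that between the times from -0.40 to 0.15 for Fbn2, -0.03 to 0.18 for Fbln2, -0.16 to 0.14 for Mfap2, -0.20 to 0.29 for Mfap4 and -0.06 to 0.18 for Lox. The cause of these was not tested.

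Replicate numbers recur in each group, and the deviations of same-numbered arrays correlated at 0.128, 0.0941 and 0.199 across genes. Nothing in the labels says what a number marks, and whether same-numbered arrays come from the same experiment was not settled by these values. With the replicate number as a block, 0 components were higher and 3 lower at 24 h, 1 higher and 3 lower at 48 h and 0 differed between the times, with Fbln5 at an adjusted p of 0.00551 and 0.00291. Over all genes the block gave 2242 higher and 1558 lower at 24 h and 1841 and 2126 at 48 h. Of 18 alternatives, the call of Fkbp10 held in 7 at 24 h and 4 at 48 h and that of Loxl4 at 24 h in 8. The call of Itgb5 at 48 h held in 8, that of Bgn in 9 at 24 h and 11 at 48 h, and that of Fbln1 at 48 h in 10. Those of Emilin2, Hspg2 and Ctsl at 24 h held in 11. Of 17 alternatives, the call of Adamtsl2 held in 3 at 24 h and 8 at 48 h and that of Itgb3 at 48 h in 10. What could not be measured for want of signal over background was Mfap5, the second probe of Fbln5 and the dimmer probe of Fbn2 at 48 h.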
